A study of Homo sapiens with 4 samples.

Results

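The promoters of chromosome 16 were compared with the new methylation peaks of HEK293 cells that carried the wild type methyltransferase. A promoter was the 2001 bp from 1000 bp before to 1000 bp after the canonical start site of a protein-coding gene in GENCODE release 44, lifted to hg19. Chromosome 16 holds 861 such promoters of 20163 on all chromosomes, 478 on the p arm and 383 on the q arm. A promoter was counted as having a new peak when at least 1 bp of it lay in a peak. HEK293 is a human embryonic kidney cell line, and its DNA was examined in 4 conditions with 1 library each. Cells of the wild type condition were transfected with a dCS plasmid (6 µg), which encodes dCas9 fused to 10 SunTag repeats, a plasmid for Ab-3A3L (3 µg) and one for an sgRNA against ISG15 (500 ng). They were taken at day 3 of this transient expression and sorted for the fluorescent marks of the plasmids. The control of the peak list was untreated cells, which had none of these agents. Cells with the K844E or R887E mutant of Ab-3A3L were not analysed here. The list holds positions and enrichment of DNA, so the cell type of the library could not be checked against marker genes.

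Ab-3A3L joins an antibody fragment that binds the SunTag repeats to the catalytic part of the DNA methyltransferase DNMT3A and to its stimulating partner DNMT3L, which together place methyl groups on the cytosine of CpG dinucleotides. Many promoters of widely used genes lie in CpG islands, stretches rich in CpGs that are usually unmethylated, while promoters of tissue-restricted genes often have few CpGs. In MBD-seq the methyl-CpG binding domain of MBD2 pulls down methylated fragments, so that more methylated CpGs in a fragment favour its recovery. A promoter without a new peak can therefore be unmethylated in both conditions or methylated in both, and the list does not tell these apart.

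The sequences of TXNDC11 and ADCY7 show a CpG-rich and a CpG-poor promoter with a new peak. They were chosen from the promoters named by fold or by CpG number, where the bases just before the start site belong to no untranslated part of a coding gene. Each holds 300 bases of GRCh37, written 5′ to 3′ on the strand of the gene, and capitals mark the CpGs. TXNDC11 (chr16:11836714-11837013, minus strand) had the highest fold among promoters whose peak belonged to a single coding gene, and 256 of its 300 bases lay in the peak. ADCY7 (chr16:50300162-50300461, plus strand) was, beside CDH5, the only promoter of low CpG density on the chromosome with a new peak, and 175 of its bases lay in it.
TXNDC11: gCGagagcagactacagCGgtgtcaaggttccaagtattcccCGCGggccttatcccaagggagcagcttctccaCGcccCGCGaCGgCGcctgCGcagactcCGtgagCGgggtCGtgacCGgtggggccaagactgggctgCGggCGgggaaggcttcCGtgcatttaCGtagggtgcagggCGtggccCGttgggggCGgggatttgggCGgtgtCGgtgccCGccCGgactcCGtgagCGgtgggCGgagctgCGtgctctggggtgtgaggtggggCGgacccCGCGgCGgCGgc
ADCY7: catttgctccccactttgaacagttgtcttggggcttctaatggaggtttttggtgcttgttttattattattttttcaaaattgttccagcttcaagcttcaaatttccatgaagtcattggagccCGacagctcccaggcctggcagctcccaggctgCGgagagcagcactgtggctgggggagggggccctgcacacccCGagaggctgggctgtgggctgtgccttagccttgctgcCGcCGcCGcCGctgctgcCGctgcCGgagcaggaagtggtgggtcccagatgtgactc
The TXNDC11 stretch holds 34 CpGs and overlaps an exon of the antisense RNA TXNDC11-AS1. The ADCY7 stretch holds 9 CpGs, with a ratio of observed to expected CpGs of 0.366 against 0.930 at TXNDC11.

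New peaks overlapped 354 of the 861 promoters of chromosome 16, or 41.1% (95% exact binomial interval 37.8 to 44.5). Over all chromosomes the share was 41.6%, and over the other autosomes 43.3% (42.6 to 44.1). The intervals of the arms overlapped, with 197 of 478 promoters on the p arm, 41.2% (36.8 to 45.8), and 157 of 383 on the q arm, 41.0% (36.0 to 46.1). These intervals cover counting error only, and with 1 library there is no measure of the spread between cultures. No p-value is given, since promoters of 1 library are not replicates.

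Chromosome 16 promoters hold more CpGs than those elsewhere, with a median of 111 CpGs against 96 on the other autosomes and a median GC content of 59.6% against 55.8%. Their CpG numbers ranged from 10 to 271, with quartiles of 71 and 147. Promoters were also classed by density. High CpG density means a 500 bp window with a ratio of observed to expected CpGs above 0.75 and a GC content above 55%, and low density means no window above a ratio of 0.48. By this measure 72.8% of the chromosome 16 promoters were of high density, against 67.6% on the other autosomes. Of these high-density promoters 345 of 627 had a new peak, 55.02% (51.0 to 59.0), and on the other autosomes 62.2% (61.3 to 63.0). The share was 55.5% on the p arm and 54.4% on the q arm. In the intermediate class 7 of 101 had a new peak, 6.93% (2.83 to 13.8), against 8.75% (7.66 to 9.93) on the other autosomes. In the low class 2 of 133 had one, 1.504% (0.183 to 5.33), which lay above the 0.578% (0.353 to 0.891) of the other autosomes with overlapping intervals. The 354 promoters with a peak had a median of 140.5 CpGs and the 507 without one a median of 87.

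Read against CpG number, the share of chromosome 16 lay below that of the other autosomes in most classes. In 10 classes, set at the deciles over all protein-coding promoters, the share was below that of the other autosomes in 9 classes and above it in 1. From the sixth class upward, 97 CpGs or more, the intervals of chromosome 16 and of the other autosomes did not overlap in any of 5 classes. At 97 to 110 CpGs 40 of 106 promoters had a peak, 37.7% (28.5 to 47.7), against 57.2% (54.9 to 59.5). At 111 to 125 CpGs 46 of 92 had one (interval 39.4% to 60.6%), against 68.1% (65.8 to 70.3). The gap was smaller in the richest class, from 170 CpGs, with 83 of 119 promoters or 69.7% (60.7 to 77.8) against 80.0% (78.1 to 81.8). Below 97 CpGs all intervals overlapped. In the poorest class, up to 19 CpGs, 0 of 27 promoters had a peak, which allows a share of up to 11.1%. The 1 class in which chromosome 16 lay above, 20 to 37 CpGs, rested on 3 promoters of 75, and 2 of these were near-identical genes of the NPIPB family.

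If each class had its share on the other autosomes, 440 of the 861 promoters would have had a peak, so that observed over expected was 0.804. With the expected number held fixed, the counting interval of this ratio was 0.740 to 0.870. It was 0.798 on the p arm and 0.812 on the q arm. Each of the 22 autosomes was set against the rest in the same way. Chromosome 19 had the lowest ratio, 0.560 (0.509 to 0.614), followed by chromosome 16 and chromosome 21, 0.870 (0.719 to 1.03). The intervals of chromosomes 21, 14, 22 and 20 overlapped that of chromosome 16, and those of the other autosomes did not. The highest ratio was that of chromosome 5, 1.18. The ratio changed with the peaks used and with the measure of CpG richness. When the peaks were restricted to those at or above the median fold, observed over expected was 0.533. With classes of the ratio of observed to expected CpGs in place of their number, it was 0.904.

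Peaks at these promoters had a lower median fold than those elsewhere. The fold is the authors' value, and fragments and background were recovered from it and from the listed p-value, with the background rate given in fragments expected at the summit. The 363 peaks that overlapped a chromosome 16 promoter had a median fold of 6.64 (quartiles 4.97 and 8.69), while the 8191 on the other autosomes had 8.07 (6.21 and 10.7). A fold of 10 or more was reached by 13.8% of them, against 30.7% on the other autosomes. The number of fragments at the summit was similar, with medians of 18 and 17. The background rate was higher, with medians of 1.53 and 0.720. Both parts of the fold were larger on the p arm. There the median was 22.5 fragments over a rate of 2.28, and on the q arm 14 fragments over 0.773, with median folds of 6.17 and 7.27. Chromosome 16 was not alone in this. Over all new peaks of an autosome, chromosome 19 had the lowest median fold, 6.21, and chromosome 16 followed with 6.26. Both had a median background rate of 1.76. Chromosome 22 came next with a median fold of 6.64 and a rate of 1.46. The part of the background in the share of promoters with a peak was not tested.

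The chromosome ends in gene-dense stretches, and its middle is an unsequenced gap of 11.1 Mb around the centromere, from 35285802 to 46385801. Promoters with a new peak occurred on both arms, with gaps between them. On the p arm the last was RUSF1 (start site 31519712), and none of the promoters from there to the centromeric gap had one. On the q arm none lay between GOT2 (58768220) and CDH5 (66400594), where CDH8 and CDH11 are the only promoters. The first promoter from the p telomere, POLR3K (start site 103608), which encodes a subunit of RNA polymerase III, shared a peak of fold 5.001 with its neighbour SNRNP25. The last one before the gap, the unnamed gene ENSG00000284209 (34265090), had 58 CpGs and no peak. The first after it, SHCBP1 (46655291), which encodes a partner of the adaptor protein SHC1, had 68 CpGs and a peak of fold 7.45. The last one of the q arm, PRDM7 (90143739), which encodes a histone methyltransferase, had 57 CpGs and no peak.

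The share varied along the chromosome. In 10 Mb bins counted from the p telomere, and among bins with at least 20 promoters, it was highest in bin 2 with 38 of 73 promoters, 52.1% (40.04 to 63.9), and lowest in bin 4 with 21 of 84 (interval 16.2% to 35.6%). The intervals of these bins did not overlap, and both were picked as the ends of the order. Bins 1 and 9, which hold the telomeric gene clusters, had shares of 47.6% (40.6 to 54.6) and 49.0% (38.7 to 59.3). These bins had the median CpG numbers of 135.5 and 146, and at equal CpG number their observed over expected ratios were 0.792 and 0.786. In bin 2 the ratio was 1.09 (0.840 to 1.34) and in bin 4 it was 0.511 (0.331 to 0.728). Within 2 Mb of the p telomere 32 of 84 promoters had a peak where 55.3 were expected, a ratio of 0.579. Within 2 Mb of the q telomere the numbers were 19 of 42 and a ratio of 0.688.

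Bin 4 runs from HIRIP3 to the gap. Its promoters had a median of 106.5 CpGs, and 59 of the 84 were of high density. It holds 13 zinc finger genes, whose products bind DNA, of which 4 had a peak, and 11 promoters with a near-identical copy elsewhere on the chromosome, of which 0 had a peak, which allows up to 27.3%. Some of these 11 promoters share a start site or overlap, so this limit is too low. How reads were placed between near-identical copies was not tested. Promoters with such a copy were more numerous in bin 2, 19 of 73, and in bin 3, 17 of 113. With both kinds left out, 17 of 60 promoters in bin 4 had a peak, 28.3% (17.5 to 41.4), and observed over expected was 0.614. The median background rate of the promoter peaks in bin 4 was 2.08, and their median number of fragments 19. In bin 1 these medians were higher, 3.44 and 27, and in bin 2 they were 1.24 and 18.5.

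Neighbouring promoters were compared in pairs. Among 772 neighbouring pairs whose promoters did not overlap, both had a peak in 147, neither in 288 and only 1 in 337. No expected number was computed for these pairs, so whether peaks cluster among neighbours was not tested. Of 87 pairs with overlapping windows 37 had a peak at both, 49 at neither and 1 at only 1 of them. In the 54 head-to-head pairs, which point away from each other with start sites within 1000 bp, both had a peak in 21 and neither in 33. The promoters of these pairs were CpG-rich, with a median of 131 CpGs, yet 42 of 108 had a peak, 38.9% (29.7 to 48.7), for an observed over expected ratio of 0.586. On the other autosomes 875 of 1658 such promoters had one, 52.8% (50.3 to 55.2), with a ratio of 0.920. Members of a pair share most of their sequence, so these counts hold fewer independent regions than promoters. The 108 promoters gave only 54 outcomes, since the members of each pair agreed. The intervals on 108 and on 1658 promoters are thus too narrow. Whether they would stay apart when counted by pair was not tested.

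The longest run of neighbouring promoters with a peak counted 9 and lay from ATP6V0C to ELOB, between start sites 2563953 and 2827281 on the p arm. All 9 were of high CpG density, with 108 to 200 CpGs, and 6.64 of them would have had a peak by their CpG classes. The runs in this paragraph were picked because all or none of their promoters had a peak. The expected numbers therefore describe their CpG content and test nothing. At ATP6V0C, which encodes a membrane subunit of the vacuolar proton pump, and at ENSG00000259784, a gene with an almost equal start site, 1 peak of fold 6.62 covered both starts. SRRM2, which encodes a scaffold protein of nuclear speckles, had the most CpGs of the run, 200, and a fold of 8.37. ELOB, which encodes elongin B, had 178 CpGs and a fold of 8.70. The longest run without a peak counted 19 and lay from TUFM to KIF22, between 28857669 and 29802072. Its promoters had 16 to 141 CpGs with a median of 60, and 9 were of high density. TUFM, the mitochondrial elongation factor Tu, had 104 CpGs. RABEP2, an effector of RAB GTPases, had 134 CpGs and NFATC2IP, which binds an NFAT transcription factor, had 137. BOLA2 and the nuclease gene SLX1B had 127 and 141 CpGs, and each has a near-identical copy further along the arm. KIF22, which encodes a kinesin of the mitotic spindle, had 119. By their CpG classes 6.66 of the 19 would have had a peak. A run of 12 from ANTKMT to SSTR5 held richer promoters, with a median of 150.5 CpGs and SOX8 as the richest, and 7.97 would have been expected to have a peak.

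The highest peak lay at GLYR1 and UBN1, a head-to-head pair whose start sites are 193 bp apart. GLYR1 encodes a nucleosome-binding cofactor and UBN1 a subunit of the HIRA histone chaperone. The peak ran from 4896666 to 4898409 and covered both start sites, with a fold of 21.3, 35 fragments and a −log10 q of 42.1, and held 222 CpGs. Its summit fell on exon 1 of UBN1, within the untranslated 5′ part. At TXNDC11, which encodes a thioredoxin-domain protein of the endoplasmic reticulum, the peak from 11835846 to 11836969 had a fold of 20.5 and 32 fragments, with its summit 269 bp after the start site in coding exon 1. IL4R, the receptor chain for interleukin 4, had 136 CpGs and a fold of 17.1, and ATF7IP2, a relative of the chromatin factor ATF7IP, had 94 CpGs and a fold of 15.4. Both of these summits lay in an intron, 135 and 203 bp after the start site. All 5 promoters are on the p arm.

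The 5 promoters with the most CpGs and no peak lay near the p telomere, on the q arm near its end and at 49.3 Mb. CACNA1H, which encodes a T-type calcium channel, had 271 CpGs, the most of the whole chromosome. SOX8, a transcription factor of the SOX family, had 246, and ZFPM1, a cofactor of GATA factors, had 236. CBLN1, which encodes a secreted organiser of synapses, had 232, and ANKRD11, a chromatin regulator, had 228. Promoters of the richest class had a peak in 80.0% of cases on the other autosomes. In all, 282 promoters of high density on chromosome 16 had no peak, with a median of 116 CpGs.

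At the other end, 5 promoters with few CpGs had a peak. NPIPB6 and NPIPB9, members of a duplicated family named for the nuclear pore, had 35 CpGs each and folds of 5.91 and 7.68. Their summits lay 1089 and 1037 bp upstream of the start site and so outside the promoter window, and both genes have near-identical copies. CDH5, which encodes the cadherin of endothelial cells, had 35 CpGs and a peak from 66400497 to 66400819 with a fold of 3.41 over a background rate of 4.86. ADCY7, an adenylate cyclase, had 41 CpGs and a peak from 50300287 to 50300641 with a fold of 9.31, 14 fragments and a background rate of 0.611. Its summit was 1 bp from the start site, at the end of the sequence printed above. SDR42E2, named for the short-chain dehydrogenases, had 62 CpGs and a fold of 4.61.

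Within the 354 promoters with a peak Spearman's rho between fold and CpG number was −0.05 and Pearson's r was 0.03. These values are across promoters of 1 library, some of which share a peak, and are given as a description. Summits lay after the start site in 238 promoters and before it in 116, with a median of 194 bp downstream and quartiles of −106 and 370. In 264 promoters, or 74.6%, the summit of the peak of highest fold lay within 500 bp of the start site. This peak covered the start site itself in 183 promoters, and with any peak counted the number was 192. By the annotation 125 summits lay in an intron, 64 in a coding exon and 47 in the 5′ untranslated part of an exon. The promoters had 1 peak in 305 cases, and 49 had more, up to 3 at BAIAP3 and GLIS2.

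**Figure D1:**
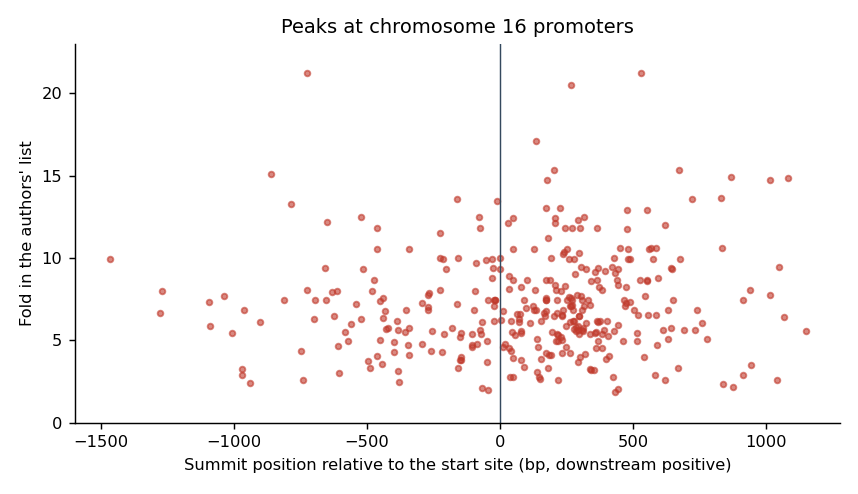
Fold of the highest peak at each of the 354 promoters with a peak (vertical axis) against the position of its summit relative to the start site in bp (horizontal axis, downstream positive). The points are densest in the first 500 bp after the start site, and low and high folds occur on both sides.

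Gene groups of the chromosome differed in how many members had a peak, and their CpG numbers differed too, so each count is read beside the number expected from CpG classes and beside the 41.6% of all promoters. Tumour suppressors and DNA repair genes had the highest share, with 12 of 14 where 10.1 were expected. The exact binomial interval, 57.2% to 98.2%, included the expected 72.1%, and all 14 promoters were of high CpG density. CTCF, which encodes the insulator-binding factor, had a fold of 14.9, ERCC4, a nuclease of excision repair, had 10.02, and AXIN1, a scaffold of the WNT pathway, had 6.27. TSC2, a brake on mTOR signalling, and the base excision glycosylase gene NTHL1 shared 1 peak of fold 4.10. PALB2, a partner of BRCA2 with 112 CpGs, and CDH1, the epithelial cadherin with 127, had none.

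Transcription factors of development had a peak in 7 of 12, with 9.31 expected. ZFHX3 had a fold of 11.8 and MAF of 7.45, and IRX5 and FOXF1 had folds of 5.62 and 3.72. SALL1 and IRX3 had no peak at 184 and 195 CpGs. Cadherin genes, which encode adhesion proteins between cells, had a peak in 1 of 8 with 4.11 expected, and that one was CDH5, the cadherin promoter with 35 CpGs. CDH11 and CDH3 had no peak at 153 and 134 CpGs. The exact binomial interval of 1 of 8 runs from 0.316% to 52.7%, so these few promoters do not fix a share. Zinc finger genes had a peak in 14 of 35 with 21.8 expected. ZSCAN32 and ZNF174 shared a peak of fold 10.6, and ZNF768 had none at 160 CpGs.

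Among the metallothioneins, small metal-binding proteins in a cluster on the q arm, 3 of 11 had a peak with 3.09 expected. MT1F had a fold of 11.8 at 69 CpGs, MT2A of 9.93 and MT1X of 9.31, each over the lowest background rate of the list, 0.611. MT3, the member with the most CpGs at 118, had none. In the alpha globin cluster near the p telomere 3 of 5 had a peak with 3.29 expected. HBA1 and HBA2, which encode the adult alpha chains, had folds of 7.41 and 5.58, with 54 and 28 fragments. The promoters of HBA1 and HBA2 have near-identical copies, and how reads were placed between copies was not tested. HBQ1 had 2.06, over a background rate of 20.8, and HBZ, the embryonic gene, had 41 CpGs and no peak. HBM, the richest of the cluster with 165 CpGs, had none either. In the interval of 16p11.2 from SPN to CORO1A, 15 of 30 had a peak with 15.1 expected. SEZ6L2 and ASPHD1 shared 1 peak, and PRRT2 and PAGR1 each shared theirs with an unnamed neighbour. The 15 promoters therefore hold fewer separate peaks. ALDOA, which encodes the glycolytic enzyme aldolase, had a fold of 12.2 and the zinc finger factor gene MAZ, with 263 CpGs, one of 9.45. The summit of the MAZ peak lay 1048 bp after its start site, outside the promoter window. MAPK3, the kinase ERK1, had no peak at 109 CpGs.

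The remaining groups differed widely in CpG number. Immune genes, with a median of 40 CpGs, had a peak in 3 of 19 with 1.81 expected, which were IL4R, NLRC5 with a fold of 9.99 and NOD2 with 6.14. CIITA, the regulator of class II histocompatibility genes, had 28 CpGs and none. Serine proteases had 1 of 13, PRSS27 with 4.35, and 3.15 were expected. TPSAB1, the mast cell tryptase, had no peak at 76 CpGs, and its promoter has a near-identical copy on the chromosome. Carboxylesterases had 1 of 5, CES2 with 6.67, and 0.659 were expected. The summit of the CES2 peak lay at −1280 bp from its start site, outside the promoter window. It was 166 bp from the start site of CIAO2B. Solute carriers had 5 of 11 with 4.76 expected, led by the amino acid transporter genes SLC7A5 and SLC7A6 with folds of 12.3 and 11.5. The promoter of SLC7A5 has a near-identical copy on the chromosome, and how reads were placed between copies was not tested. Translation genes had 2 of 8 with 4.77 expected, RPS2 and RPL13, with folds of 5.65 and 5.66, and RPS15A had none at 105 CpGs. Of 5 respiratory chain genes COX4I1 and NDUFB10 had folds of 5.70 and 6.23, with 3.11 expected, and UQCRC2 had none at 83 CpGs. In the duplicated families 4 of 35 had a peak with 9.99 expected, and 33 of the 35 have a near-identical copy on the chromosome. NPIPA2 and NPIPA3 had folds of 12.5 and 9.41. The 6 genes of the TP53TG3 family had 97 CpGs each and no peak. TP53TG3 and TP53TG3F have the same start site, and so do TP53TG3C and TP53TG3E, so their windows were counted repeatedly.

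Chromosome 16 held 565 of the new peaks, and 363 of these, 64.2%, overlapped a promoter of a coding gene. A further 39 lay at the start of another gene only, 85 inside a gene and 78 between genes. The peaks inside and between genes were poorer in CpGs, with medians of 6.81 and 6.18 CpGs per 100 bp against 11.0 at coding promoters, and had lower folds, with medians of 5.44 and 5.29. The highest fold away from a coding promoter, 17.6, belonged to a peak inside a gene from 29093288 to 29093769, 97153 bp from the nearest coding start site, that of LAT. Of the 78 peaks between genes, 10 lay next to the gap on the q arm, from 46389569 to 46434248. The medians given for peaks between genes include these 10, which held 2.67 to 4.36 CpGs per 100 bp. Their folds of 1.83 to 2.89 lay below 4.43, the lower quartile of the peaks on the chromosome, over background rates of 18.7 to 89.5 and with 52 to 165 fragments.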

How the data were processed

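MBD-seq libraries were made by the authors for 4 conditions of HEK293 cells, 1 library each, grouped by their labels, and only the list for wild type Ab-3A3L was used. Reads were mapped to hg19 with Bowtie2, and the submitters' processing notes also name FastQC, deepTools and MACS2. The settings of the peak call are not given in the sources used here. The list deposited by the authors holds 12864 peaks. The score deposited by the authors was made by multiplying the −log10 q by 10 and rounding down. Their fold is the ratio of summit fragments to a background, as deposited. The authors also deposited the −log10 of p and of q, and the lowest −log10 q is 2.002. One other deposited column places the summit within its peak. These values were used within the list only.

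Start sites came from GENCODE release 44 on GRCh37, the build of hg19. For 282 genes without a canonical transcript, 8 of them on chromosome 16, the start of the gene record was used. CpGs were counted in the GRCh37 sequence. Fragments and background rate were recovered from fold and p, taking the fold as (fragments + 1)/(rate + 1) and p as a Poisson probability. This is an inference from the values, which missed the listed −log10 p by at most 0.000403. Tested on simulated data, 2000 of 2000 fragment numbers were recovered. The median over the list is 18 fragments, which with 1 library and no replicate limits the precision. The methods give the read number only as an average per sample, and the list holds no total for this library.

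Arms were split at the longest run of unknown bases. A promoter had a near-identical copy when its window matched a stretch elsewhere on the chromosome, promoter or not, over at least 1000 bp at 95% identity or more. Shares have 95% exact binomial intervals, and a share of 0 an upper limit of 3 counts. No p-value was computed across promoters. Expected numbers used 10 CpG classes and their shares on the other autosomes. Alternatives covered the peak threshold, overlap, window, start sites, genes, copies, CpG classes and bins. The promoters, lists and rules were chosen with earlier results of these data known. Named were the 5 promoters of highest fold, the 5 richest in CpGs without a peak, the 5 poorest with one, the ends of the arms, genes of the longest runs and members of each list. Other promoters and peaks named were chosen after their values were seen. Printed sequences were moved to the bases before the start site so that they hold no untranslated part. Scripts ran in Python 3.11.15 with pandas 2.3.3, numpy 2.4.6, numba 0.67.0, scipy 1.17.1 and matplotlib 3.10.9, and copies were found with blastn 2.17.0.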

Additional observations from a re-analysis of the deposited data

How the results depend on the processing

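Of 52 alternatives, 9 of them chosen after seeing the data, 32 left their result within its limit. The share of promoters with a new peak stayed within its interval with an overlap of 200 bp, with the summit in the promoter, with windows of 500 or 2000 bp on each side, with overlapping promoters merged and without near-identical copies or zinc finger genes. Stricter peaks moved it. With at least the median fold of the list it was 17.2% on the chromosome, 14.2% on the p arm and 20.9% on the q arm, and observed over expected was 0.533. In the richest CpG class, an alternative chosen after seeing the data, the share was then 28.6%. With a −log10 q of at least 10 the shares were 18.4%, 20.5% and 15.7%, so that the order of the arms turned between these thresholds. With the start site itself in a peak they were 22.3%, 23.01% and 21.4%. With the starts of all transcripts they were 27.9%, 29.3% and 26.3%, and with genes of all types 18.5%, 20.1% and 16.6%. With classes of the ratio of observed to expected CpGs, observed over expected was 0.904, while 7 other alternatives gave 0.778, without chromosome 19 in the background, to 0.835, without bin 4. The number of peaks on the chromosome was 200 with the median fold and 217 with the stricter q. The causes of these shifts were not tested, except that stricter peaks are by construction fewer. No paired analysis was possible because each condition has 1 library. Precision is limited by few fragments per peak, and a promoter without a peak may have lacked the fragments to be called.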
